A study of Mus musculus with 21 samples.

Results

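Charlie and Tigger are names that repeat annotations give to the remains of old DNA transposons, and the libraries described here counted reads for 53 of them, 34 beginning with Charlie and 19 beginning with Tigger, out of 1217 repeat names. The members were taken by name alone, from the repeat rows of the 3 read count tables; the rule used no measured value, but it was set with earlier results of these data known. The RNA came from male mouse germ cells of a mixed strain background, sorted for an Oct4-GFP reporter, from matings of Tex15+/- parents. Tex15 knockout cells (KO, Tex15-/-) and heterozygous cells (HT, Tex15+/-) were profiled on embryonic day 16.5 (E16.5), on embryonic day 18.5 (E18.5) and 2.5 days after birth (D2.5), while wild-type cells (WT) were profiled at D2.5 alone. Each of the 7 groups held 3 libraries, so 21 in all. The groups thus share the reporter, the sort and the parental genotype, the labels name no Cre or other restriction of the Tex15 alleles to a cell type, and no WT group before birth is described. The design text of the series gives the postnatal age as day 2.

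DNA transposons move by cut and paste: a transposase encoded by an intact copy binds the inverted repeats at both ends of the element, excises it and inserts it elsewhere. Charlie elements belong to the hAT superfamily and Tigger elements to the pogo branch of the Tc1/mariner superfamily. Both spread in early mammals and are thought to be long immobile in the mouse, so their copies are fossils with no known ability to jump, whereas young LINE-1 (L1) and intracisternal A particle (IAP) elements of the mouse still move by way of RNA. TEX15 acts in fetal male germ cells in the piRNA pathway, in which small RNAs guide the silencing of young retrotransposons. The fossil DNA transposons are therefore a set of repeats outside the class for which that pathway is best known.

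Every member was detected in every library. Total counts were 16661750 to 23353300 per library and gene counts 6063632 to 11884109, and repeat names took 41.9% to 69.4% of all counts. The members together took 57406 to 145065 counts, or 0.555% to 0.909% of the repeat counts, and the lowest count of any member in any library was 37. Tex15 checked the labels: its level was 2.89 to 3.75 CPM in the embryonic KO libraries and 15.9 to 23.6 CPM in the D2.5 KO libraries, against 737 to 2075 CPM in HT and 3543 to 4342 CPM in WT libraries (CPM, counts per 1000000 gene counts after TMM scaling). Germ cell markers (9 genes) summed to 2483 to 7614 CPM, while each of 5 marker lists of other testis cell types summed to at most 525 CPM. Of 5 Leydig genes only Insl3 was at 0 in every D2.5 library. The Leydig list summed to 12.6 to 48.8 CPM in D2.5 KO, 13.8 to 37.4 CPM in HT and 19.3 to 36.0 CPM in WT libraries. The first E16.5 HT library stood apart, with 5815 genes at 0 against 3507 and 4421 in the other E16.5 HT libraries and the lowest repeat share of all libraries. A name sums the reads of all its copies, whether a copy lies in a gene or between genes, and copies of 1 name cannot be told apart here. Counts were not divided by copy number or length, so CPM is compared between groups for 1 name and not between names.

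Summed over the 53 names, KO and HT cells of the same age did not separate. At E16.5 the sum was 6361, 5846 and 6059.6 CPM in KO libraries, against 6481, 5552 and 5528 CPM in HT libraries. At E18.5 it was 6892, 6154 and 7722 CPM in KO libraries, against 7431, 5546 and 6463 CPM in HT libraries. At D2.5 it was 14169, 17759 and 21368 CPM in KO libraries, against 18021, 22038 and 21539 CPM in HT libraries and 20223, 21413 and 18072 CPM in WT libraries. The genotypes overlapped at each age, while every D2.5 library lay above every embryonic one. In such bulk samples, a different number of cells of a type and a different amount of RNA per cell cannot be told apart. The lowest D2.5 sum, that of the first KO library, was also the one with the lowest repeat share at that age, 58.6% against 63.0% to 69.4% in the other D2.5 libraries.

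**Figure D1:**
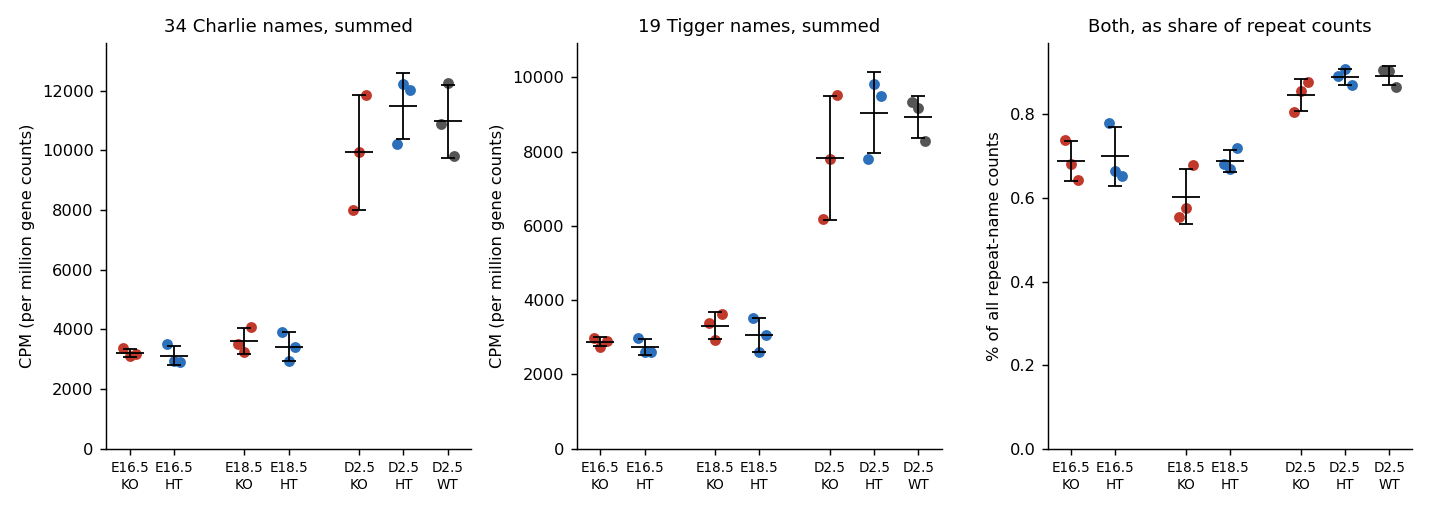
Summed level of the 34 Charlie names and of the 19 Tigger names in CPM, and both together as a percentage of all repeat counts, for KO, HT and (at D2.5) WT libraries of the 3 ages. Points are libraries, bars are mean ± SD (n = 3); genotypes of 1 age overlap in CPM, and D2.5 lies above both embryonic ages in each panel.

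A few names held most of the counts. Tigger7, Charlie1a, Tigger5, Charlie1, Tigger1 and Charlie5 took 55.2% to 57.3% of the members' CPM in each group, and Tigger7 alone took 16.7% over all libraries. Tigger7 had 1135, 1041 and 1052 CPM in E16.5 KO libraries, against 1159, 1015 and 969.8 CPM in E16.5 HT libraries. It had 1198, 1053 and 1305 CPM in E18.5 KO libraries, against 1299.8, 945 and 1119 CPM in E18.5 HT libraries. At D2.5 it had 2129.9, 2743 and 3428 CPM in KO libraries, against 2929.5, 3606 and 3484 CPM in HT and 3388, 3322 and 3097 CPM in WT libraries. The genotypes overlapped at all 3 ages, and the first KO library was the lowest of the 9 at D2.5. At the other end, Charlie11 averaged 85.0 counts and Charlie10b 95.3 counts per library, so single reads weigh more there. Likeness to Tigger7 was taken over 978 names, itself included, with a mean of at least 50 counts per library. The names most like it over the 21 libraries were ID_B1, L1MD2 and URR1A, each with a Pearson r of 0.998 on log2 CPM. The points share libraries and scaling, and D2.5 lies apart from both embryonic ages; over the 12 embryonic libraries r was 0.970, 0.984 and 0.975.

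The comparison of KO with HT cells asks whether fossil DNA transposons are among the repeats that change when TEX15 is missing. At E16.5 no member passed the threshold of 0.05 (edgeR quasi-likelihood test, Benjamini-Hochberg over all names tested), and 0 of all 1090 names tested passed, or 0%. At an unadjusted p under 0.05 there were 2 members, Charlie10 and Tigger15a, and 76 names in all; DESeq2 called 2 names at this age, none of them a member. The median log2 fold change of the 53 was 0.05, against 0.12 over all names, with a range of -0.20 to 0.33, and 38 lay above 0, against 888 of 1090 names. The 4 highest were Charlie22a (0.33), Charlie19a (0.25), Charlie10a (0.21) and Tigger11a (0.21), and the 4 lowest Charlie11 (-0.20), Charlie17a (-0.14), Charlie7a (-0.13) and Charlie1b (-0.11), with adjusted p of 0.573 or more. Charlie22a had 29.2, 27.1 and 33.8 CPM in KO libraries, against 26.2, 20.3 and 25.2 CPM in HT libraries, which did not overlap. Groups did not overlap for 5 members, 4 higher in KO, against 13.0% of all names, and 1 lower, against 1.19%. The 6 most counted names had log2 fold changes of -0.03 to 0.17. Without the first E16.5 HT library no member was called either, and the median was 0.12. Macrophage markers (4 genes) summed to 29.8 to 53.6 CPM in E16.5 KO libraries, against 13.5 to 28.9 CPM in HT libraries, and their part was not tested.

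At E18.5 the Charlie and Tigger names again held no call: 0 of 53, against 112 of 1125 names (9.96%), and no member had an unadjusted p under 0.05, against 199 names. The median of the members was 0.08, against 0.17 over all names, with a range of -0.15 to 0.40. Above 0 lay 44 of 53 members, against 1005 of 1125 names. Leaving out 1 library moved the members' median to between -0.0141, without the third KO library, and 0.19, without the first HT library, and it was -0.00704 without the second HT library and 0.18 without the second KO library. The highest were Charlie10b (0.40), Charlie20a (0.31), Charlie4 (0.30) and Charlie24 (0.29), and the lowest Tigger16b (-0.15), Tigger13a (-0.03), Tigger11a (-0.02) and Charlie1b (-0.02). Charlie10b had 8.88, 5.68 and 7.85 CPM in KO libraries, against 6.95, 5.14 and 4.81 CPM in HT libraries (adjusted p = 0.527). Charlie20a had 42.7, 46.9 and 56.5 CPM in KO libraries, against 49.5, 30.3 and 37.8 CPM in HT libraries. For both the groups overlapped, as for all 53 members, while 17.2% of all names were higher in KO without overlap and 0.889% lower. Without the first E18.5 HT library Charlie20a was the 1 member called (log2 fold change 0.51, edgeR adjusted p = 0.0203). That fit called 257 of 1121 names (22.9%). The 6 most counted names lay at 0.01 to 0.18. Every 95% interval lay within 1 log2 unit of 0, its farthest bounds being -0.56 and 0.93. With the replicate numbers as a block, 202 names were called and still no member. At this age each library correlated best with the same-numbered library of the other genotype, at 0.15 to 0.19. The labels state no pairing. Macrophage markers summed to 59.5 to 74.2 CPM in E18.5 KO libraries, against 23.6 to 27.7 CPM in HT libraries; their part in these values was not tested.

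The direction of the small shift at E18.5 depended on the scaling as well as on single libraries. Scaled to repeat totals in place of gene counts, the median of the members was -0.21 and that of all names -0.11. Other library sizes shift all names nearly alike, so the members' place below all names could hardly change and was not tested by this. With repeat totals Tigger16b was the single member called (-0.44, edgeR adjusted p = 0.0297, lower in KO), against 94 of 1125 names (8.36%). Its level was 22.4, 15.9 and 25.3 CPM in KO libraries, against 26.5, 21.1 and 22.8 CPM in HT libraries.

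Other repeat lists put these values in context. The 6 young L1 names had median log2 fold changes, from the youngest age to the oldest, of 0.52, 1.21 and 0.39, and the 16 IAP names 0.50, 1.12 and 0.32. All 6 and all 16 were called higher in KO cells at E18.5, none at E16.5, and 2 of the 6 and 4 of the 16 at D2.5. The names of the oldest retroelements, L2, L3 and MIR (11 names), had medians of 0.08, 0.10 and -0.19, with no call at any age. The other DNA transposon names (78 of 79 tested) had medians of 0.09, 0.09 and -0.23, with 2 calls at E18.5, 1 of them Zaphod2. The Charlie and Tigger names, at 0.05, 0.08 and -0.19, thus lay near both lists of old repeats and below the young elements; no test of these differences between lists was made. As a share of all repeat counts, the members took 0.555, 0.577 and 0.679% in E18.5 KO libraries, against 0.681, 0.669 and 0.719% in HT libraries. The KO library was the lower one in each of the 3 same-numbered pairs, and the third KO library lay within the HT range; this share was not tested.

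**Figure D2:**
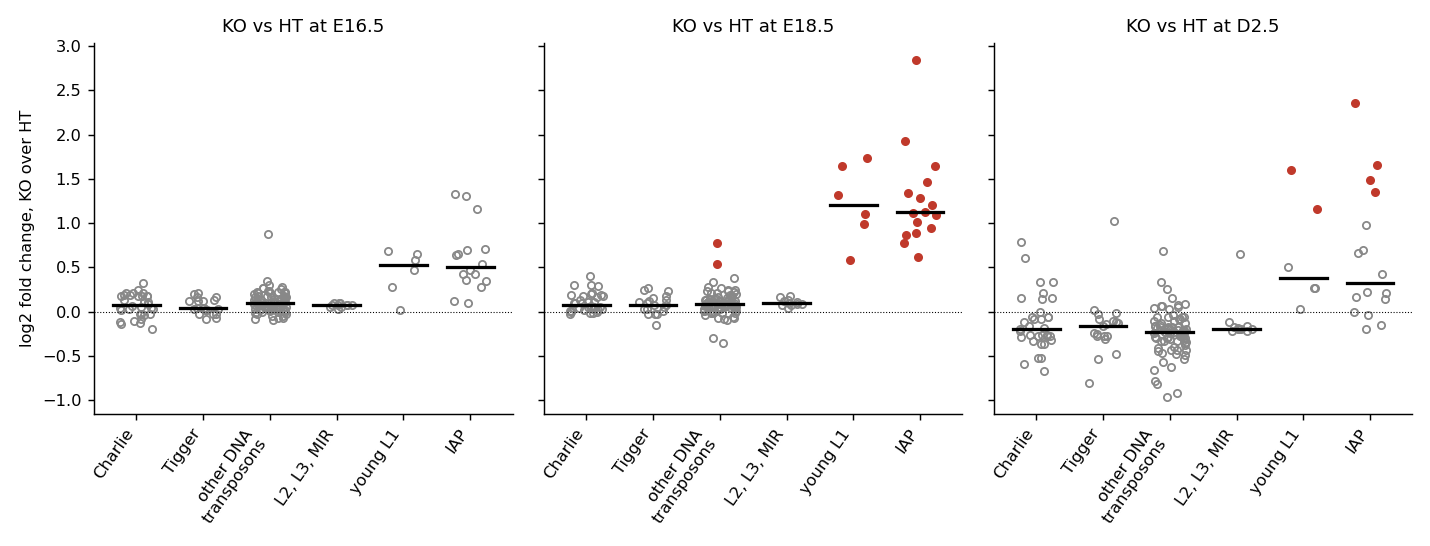
Log2 fold change of KO over HT cells (vertical axis), with a panel for each of the 3 ages, for the names of 6 lists. Each point is 1 name, filled red where the adjusted p was under 0.05, and black lines are list medians; the 53 Charlie and Tigger names hold no filled point, while all 6 young L1 and all 16 IAP names are filled at E18.5.

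At D2.5 the members spread more widely and leaned the other way. No member was called between KO and HT cells, against 14 of 1110 names (1.26%). An unadjusted p under 0.05 was found for 5 members and for 77 names in all. The median of the members was -0.19, close to the -0.17 of all names, with a range of -0.80 to 1.02. Below 0 lay 43 of 53 members, against 824 of 1110 names. The 95% intervals of 40 members lay within 1 log2 unit of 0, so the intervals of the other 13 reached beyond it. Without the first KO library, which had the lowest sum, the median was -0.03, and without the third KO library it was -0.33. Stromal markers (5 genes) summed to 219 to 525 CPM in D2.5 KO libraries, against 151 to 228 CPM in HT and 136 to 291 CPM in WT libraries. Sertoli markers (6 genes) summed to 28.7 to 154 CPM in D2.5 KO libraries, against 26.1 to 46.9 CPM in HT and 23.9 to 82.5 CPM in WT libraries. The part of either list was not tested.

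Tigger12c was the member nearest to a call. It had 66.5, 117 and 119 CPM in D2.5 KO libraries, against 37.8, 53.6 and 57.3 CPM in HT libraries and 76.5, 91.1 and 75.3 CPM in WT libraries. All 3 KO libraries lay above all 3 HT libraries, but the WT libraries lay within the KO range and also above HT. The log2 fold change was 1.02 (SE 0.31, adjusted p = 0.061) for KO over HT, 0.32 (SE 0.30, adjusted p = 0.95) for KO over WT and -0.70 (SE 0.30, adjusted p = 1.00) for HT over WT, all by edgeR's quasi-likelihood test. It passed for KO over HT with repeat totals as library sizes (1.16, adjusted p = 0.00337), with TMM over genes and names (1.03, adjusted p = 0.0375), with DESeq2 (1.02, adjusted p = 0.0265) and without the first KO library (1.25, adjusted p = 0.00413). No alternative called it for KO over WT. At the embryonic ages its KO and HT levels overlapped, with log2 fold changes of 0.13 at E16.5 and 0.06 at E18.5.

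The other Tigger12 names, and the Charlie10 names, had other patterns at D2.5. Tigger12A, the lowest member, had 17.3, 12.8 and 16.4 CPM in KO libraries, against 15.3, 28.7 and 36.9 CPM in HT and 24.1, 21.3 and 22.3 CPM in WT libraries. Its log2 fold change was -0.80 (SE 0.46, adjusted p = 0.798) for KO over HT, by edgeR, and KO and HT overlapped. Tigger12 was at 0.02 for KO over HT. Charlie10 had 176, 296 and 347 CPM in KO libraries, against 193, 190.1 and 156 CPM in HT and 178, 184 and 181 CPM in WT libraries. Both other KO libraries lay above every HT and WT library, and the first KO library lay within the HT range. The log2 fold change of Charlie10 was 0.61 (SE 0.25, adjusted p = 0.355) over HT and 0.60 (SE 0.25, adjusted p = 0.404) over WT, by edgeR. Without the first KO library both were called, at 0.85 (adjusted p = 0.0221) and 0.84 (adjusted p = 0.0266), and so were both with repeat totals as library sizes, at 0.70 (adjusted p = 0.0377) and 0.66 (adjusted p = 0.0488). Charlie10a was at -0.33 and Charlie10b at 0.34 for KO over HT.

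**Figure D3:**
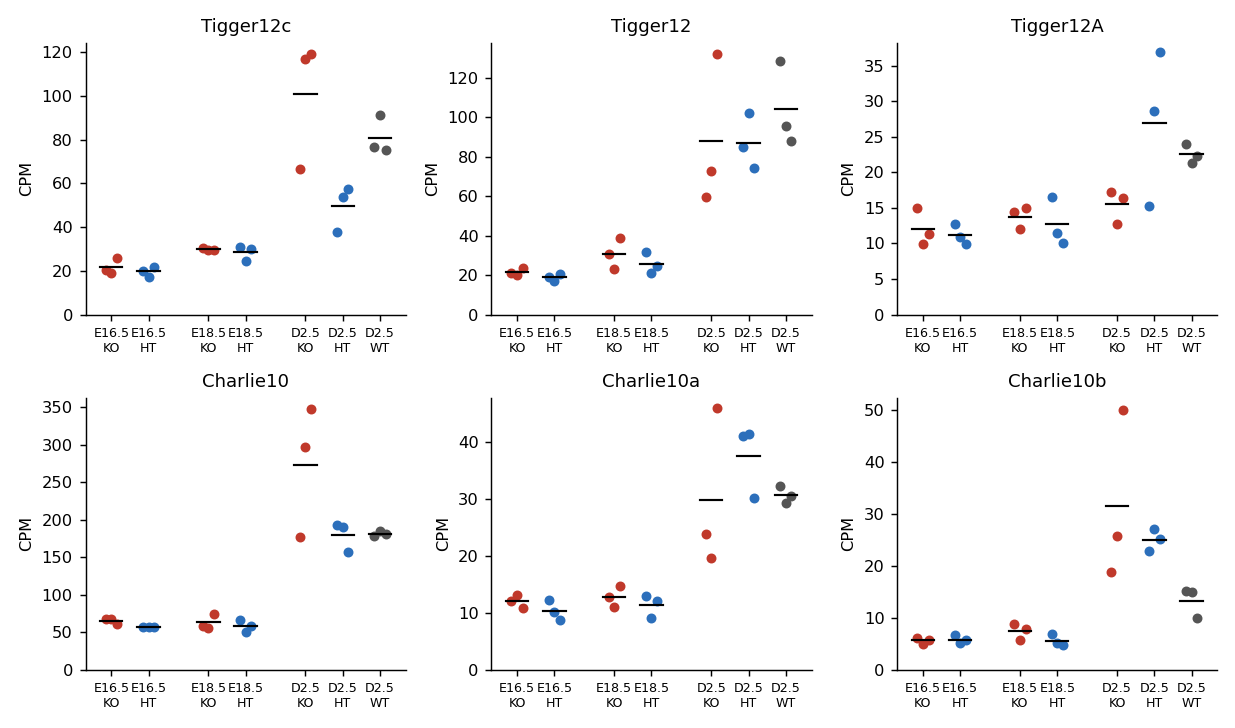
Level in CPM of the 3 Tigger12 names and the 3 Charlie10 names in KO, HT and (at D2.5) WT libraries of the 3 ages, with a scale for each name. Points are libraries and lines group means (n = 3); for Tigger12c at D2.5 all KO libraries (66.5 to 119 CPM) lie above all HT libraries (37.8 to 57.3 CPM) with WT between 75.3 and 91.1 CPM.

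The other extremes at D2.5 were Charlie17a (0.79) and Charlie26a (0.34) on the high side, and Charlie6 (-0.67), Charlie16a (-0.59) and Tigger11a (-0.54) on the low side, with adjusted p of 0.717 or more. Charlie17a had 27.95, 34.3 and 27.1 CPM in KO libraries, against 13.4, 23.5 and 14.5 CPM in HT and 29.8, 29.4 and 28.3 CPM in WT libraries. As with Tigger12c, the HT libraries were the low ones and the WT libraries lay at or above 28.3 CPM. Charlie2b had 325, 419 and 460.1 CPM in KO libraries, against 508, 593 and 632 CPM in HT and 510.1, 622 and 519.7 CPM in WT libraries. Every KO library lay below every HT and WT library, yet the log2 fold changes of -0.53 and -0.45 did not pass (adjusted p = 0.439 and 0.654, edgeR). Groups did not overlap for 5 members: Tigger12c and Charlie17a were higher, against 3.06% of all names, and Charlie2b, Charlie12 and Charlie16a lower, against 5.95%. The 6 most counted names lay at -0.27 to -0.12.

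**Figure D4:**
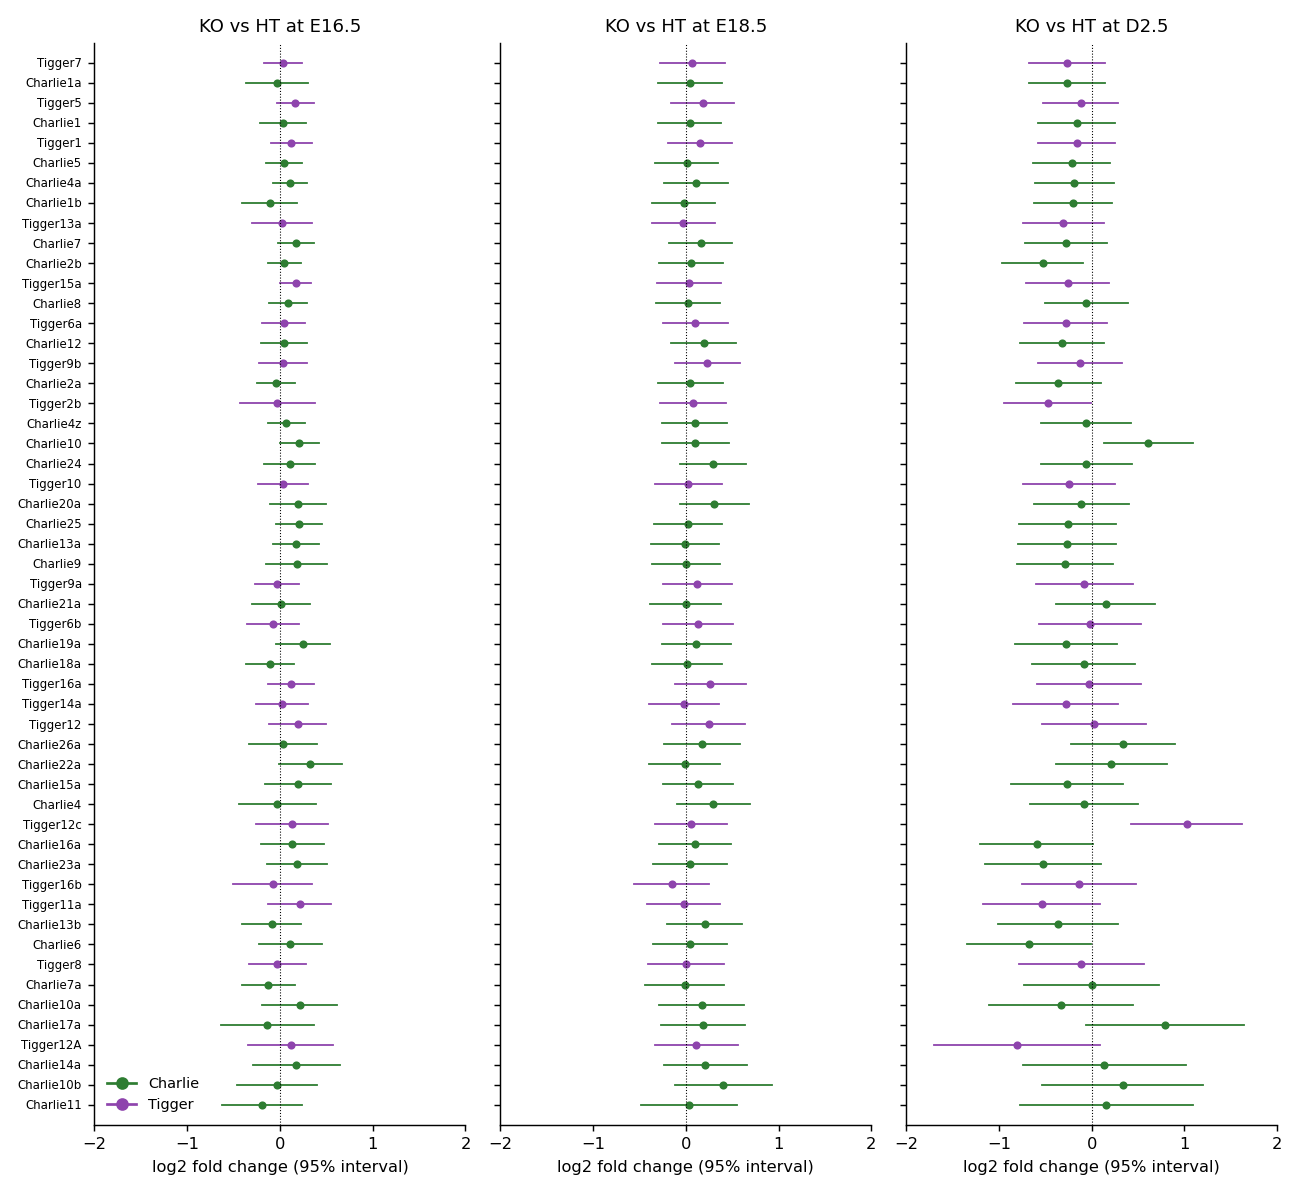
Log2 fold change of KO over HT cells with its 95% interval for each of the 53 names, from the most counted name (top) to the least (bottom), with a panel for each of the 3 ages. Charlie names are green and Tigger names purple; no name passed the adjusted threshold at any age, and intervals are widest at D2.5.

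KO cells were also set against WT cells at D2.5, with the same KO libraries, so both comparisons share them. Again 0 of 53 members were called, against 16 of 1110 names (1.44%), with 6 members and 75 names in all at an unadjusted p under 0.05. The median was -0.17, against -0.11 over all names. The highest were Charlie10b (1.25), Charlie10 (0.60), Charlie26a (0.36) and Tigger12c (0.32), and the lowest Charlie6 (-0.71), Tigger2b (-0.71), Tigger11a (-0.68) and Tigger12A (-0.54). Charlie10b had 18.8, 25.8 and 50.1 CPM in KO libraries and 22.9, 27.2 and 25.1 CPM in HT libraries, against 15.1, 14.9 and 9.94 CPM in WT libraries. WT was the low group here, below every KO and HT library, with an adjusted p of 0.213 for KO over WT. Tigger2b had 150.2, 180 and 217 CPM in KO libraries and 175, 282 and 302 CPM in HT libraries, against 300.2, 335 and 262 CPM in WT libraries. All KO libraries lay below all WT libraries, and the adjusted p of 0.14 compares with 0.023 with repeat totals as library sizes (-0.62) and 0.0462 without the third KO library (-0.87). Groups did not overlap for 6 members, 1 higher, against 4.86% of all names, and 5 lower, against 5.59%. The median was 0.01 without the first KO library and -0.34 without the third.

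HT and WT cells, which differ in 1 copy of Tex15, gave 0 of 53 and 0 of 1110 names called (0%), with 2 members (Tigger12c and Charlie10b) and 16 names at an unadjusted p under 0.05, and DESeq2 and limma-voom called none either. The median was 0.04, against 0.06 over all names. The highest were Charlie10b (0.91), Charlie16a (0.43), Tigger8 (0.35) and Charlie13a (0.32), and the lowest Charlie17a (-0.76), Tigger12c (-0.70), Charlie14a (-0.58) and Charlie22a (-0.39). Groups did not overlap for 4 members: Charlie7 and Charlie10b were higher in HT, against 2.79% of all names, and Charlie17a and Tigger12c lower, against 1.53%. The members ranged from -0.76 to 0.91, and 43 of the 95% intervals lay within 1 log2 unit of 0.

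Whether the KO effect changed with age was tested in 1 fit of the 18 KO and HT libraries. For E18.5 minus E16.5, 0 of 53 members were called, against 2 of 1144 names (0.175%), and no member had an unadjusted p under 0.05, against 28 names. For D2.5 minus E18.5, 0 of 53 were called, against 24 of 1144 names (2.10%), all 24 lower, with 5 members and 184 names in all at an unadjusted p under 0.05. The names called numbered 0 without the second E18.5 HT library and 63 without the third D2.5 KO library, with every other library left out in between, 5 with RLE factors, 2 with repeat totals and 1 with genes and names in 1 fit; leaving out any 1 library called no member. The median difference was -0.30, against -0.36 over all names. Tigger12c was highest, at 0.96 (SE 0.33, adjusted p = 0.15), by edgeR. With the replicate numbers as a block, 6 members and 282 names were called: Tigger12c higher (0.93, adjusted p = 0.0123), and Charlie2b (-0.61), Charlie12 (-0.53), Charlie7 (-0.47), Charlie16a (-0.71) and Tigger2b (-0.53) lower, with adjusted p of 0.0187 to 0.0496. Same-numbered KO and HT libraries correlated best with each other at E18.5 but not at D2.5, and the labels state no pairing. With repeat totals as library sizes only Tigger12c was called, at 1.39 (adjusted p = 0.00473).

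The large difference in these names was between ages. In HT cells, 51 of 53 members were higher at D2.5 than at E18.5 (all 19 Tigger and 32 of 34 Charlie names), against 82.2% of all names called in either direction and 79.1% called higher. The median log2 fold change was 1.58, against 1.36 over all names, and 49 members were higher without overlap, against 76.7% of all names, and none lower, against 3.85%. The rise was thus part of one that most repeat names shared. Other measures differed between the same libraries: 7227 to 8184 genes were at 0 in D2.5 HT libraries, against 2555 to 2687 in E18.5 HT libraries, and gene counts were 6395192 to 7391401, against 7877665 to 11168905. Macrophage markers summed to 77.4 to 93.0 CPM in D2.5 HT libraries, against 23.6 to 27.7 CPM in E18.5 HT libraries. Germ cell markers summed to 5580 to 5920 CPM, against 2768 to 3110 CPM in the same libraries. Endothelial markers (4 genes) were lower at D2.5, at 70.1 to 91.8 CPM against 92.5 to 109.6 CPM. The Sertoli, Leydig and stromal lists overlapped between these ages. The part of these in the age difference was not tested. Counts of each age were deposited as a separate set, so age cannot be told apart from any other difference between the sets. The largest were Charlie10b (2.16), Tigger6a (2.09), Charlie1a (2.02) and Charlie2b (2.00), with adjusted p of 5.89e-07 or less by edgeR. Charlie1a had 3261, 3772 and 3781 CPM in D2.5 HT libraries, against 1034, 736 and 893 CPM in E18.5 HT libraries. Tigger6a had 374, 478 and 416 CPM in D2.5 HT libraries, against 107, 82.98 and 108 CPM in E18.5 HT libraries. In both, every D2.5 library lay above every E18.5 library.

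The 2 members without a call were Charlie17a, at 0.49 (SE 0.30, adjusted p = 0.128), and Charlie14a, at 0.57 (SE 0.33, adjusted p = 0.108), by edgeR. The next lowest were Tigger12c, at 0.80 (SE 0.23, adjusted p = 0.00248), and Charlie22a (0.94, adjusted p = 0.00043). Charlie17a had 13.4, 23.5 and 14.5 CPM in D2.5 HT libraries, against 17.1, 9.32 and 10.6 CPM in E18.5 HT libraries. Charlie14a had 9.45, 20.2 and 27.00 CPM in D2.5 HT libraries, against 13.5, 9.84 and 14.9 CPM in E18.5 HT libraries. For both names the ages overlapped. Charlie17a was called without the first D2.5 HT library or without the first E18.5 HT library, and Charlie14a without the first D2.5 HT library. Of the other most counted names, the log2 fold changes were 1.58 (Tigger7), 1.47 (Tigger5), 1.88 (Charlie1) and 1.59 (Tigger1), and Charlie5 was at 1.64.

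The size of that rise depended on the scaling. Repeat names took 62.96, 68.3 and 69.4% of all counts in D2.5 HT libraries, against 57.6, 49.9 and 53.8% in E18.5 HT libraries. With repeat totals as library sizes, the median of all names was 0.07, that of the members 0.27, and 22 members were called: 19 higher (13 Charlie, 6 Tigger) and 3 lower, against 594 of 1144 names (51.9%), of which 338 were higher (29.5% of those tested) and 256 lower. Highest of the 19 were Charlie10b (0.87), Tigger6a (0.79), Charlie1a (0.73), Charlie2b (0.71), Charlie20a (0.64) and Charlie26a (0.63). Charlie1 (0.58), Tigger2b (0.57) and Charlie12 (0.54) were also among them. The 3 lower ones were Charlie17a (-0.79, adjusted p = 0.0119), Charlie14a (-0.76, adjusted p = 0.0254) and Tigger12c (-0.51, adjusted p = 0.0128), by edgeR. The direction of these 3 thus turned with the scaling. The members' share of all repeat counts was 0.893, 0.909 and 0.87% in D2.5 HT libraries, against 0.681, 0.669 and 0.719% in E18.5 HT libraries, with no overlap. Tigger names took 43.3, 44.6 and 44.1% of the members' counts at D2.5, against 47.4, 47.1 and 47.5% at E18.5, so the Charlie share was larger after birth in each HT library.

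**Figure D5:**
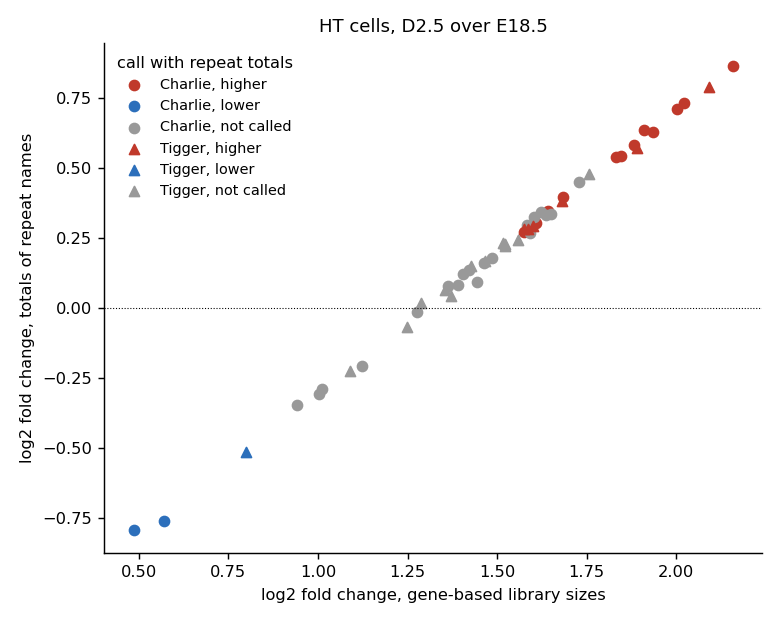
Log2 fold change of D2.5 over E18.5 in HT cells for the 53 names, with library sizes from the genes (horizontal axis) and with repeat totals (vertical axis). Circles are Charlie and triangles Tigger names, red where called higher, blue where called lower and grey where not called with repeat totals; all 53 lie right of 0, and Charlie17a, Charlie14a and Tigger12c lie lowest.

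Between E16.5 and E18.5 no member was called in HT cells, against 67 of 1144 names (5.86%). At an unadjusted p under 0.05 there were 12 of 53 members, against 368 of 1144 names. Above 0 lay 47 members, against 1010 names. The median was 0.18, against 0.33 over all names; it was 0.0155 with repeat totals, 0.0956 with TMM over genes and names, 0.27 with RLE factors and 0.0948 to 0.28 when 1 library was left out. The highest were Charlie6, at 0.81 (SE 0.27, adjusted p = 0.0614), Charlie14a (0.73), Tigger11a (0.64) and Tigger14a (0.57), and the lowest Tigger2b (-0.13), Charlie26a (-0.13), Charlie1a (-0.10) and Charlie10b (-0.04), by edgeR. Charlie6 had 29.7, 24.98 and 24.9 CPM in E18.5 HT libraries, against 12.9, 15.9 and 16.6 CPM in E16.5 HT libraries, with no overlap. It was called with RLE factors (0.88), with DESeq2 (0.81), with the replicate block (0.83) and without the third D2.5 KO library (0.81). For comparisons of ages that block gives each replicate number 1 effect shared by all ages. The labels do not say that equal numbers of different ages belong together. Groups did not overlap for 19 members, all higher, against 43.8% of all names, and 0.962% of names were lower without overlap. In place of 67 names, 1 was called, and no member, without the first or the second E16.5 HT library or the first E18.5 HT library, 162 without the second E18.5 HT library, where Charlie16a was the 1 member called (0.70, edgeR adjusted p = 0.0466), and 184 with RLE factors. Each other library left out gave a count between 1 and 162. In KO cells the log2 ratio of means had a median of 0.25 over the members for E18.5 over E16.5 and of 1.24 for D2.5 over E18.5, as a description, with 49 and 53 of 53 above 0.

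The authors' separate family tables count alignments and not reads, and hold 12 DNA transposon families. Rows named Charlie and Tigger are small there: in the first D2.5 HT library the Charlie row had 1574 alignments, while the 34 Charlie names had 56262 reads. Far larger rows are MER1_type and MER2_type, with 34450, 43365 and 39989 CPM and 10058, 13054 and 11734 CPM in D2.5 HT libraries, labels under which older repeat annotations placed many Charlie and Tigger elements, so the Charlie and Tigger rows do not cover the same copies as the names. The Charlie family had 113, 109 and 135 CPM in E18.5 KO libraries, against 126, 95.5 and 106 CPM in HT libraries. The Tigger family had 174, 155 and 186 CPM in E18.5 KO libraries, against 179, 155 and 174 CPM in HT libraries. Both overlapped between genotypes, and at D2.5 Charlie had 242, 281 and 335 CPM in KO libraries, against 286, 367 and 370 CPM in HT and 315, 343 and 242 CPM in WT libraries. None of the 12 families was called for KO over HT, where 7.69% of 52 families were called at E16.5, 9.62% at E18.5 and again 7.69% at D2.5, nor for KO over WT (7.69%) or HT over WT (0%). At E18.5 the log2 fold change was 0.12 (SE 0.16, adjusted p = 0.963) for Charlie and 0.01 (SE 0.15, adjusted p = 0.978) for Tigger, and 0.06 (SE 0.15, adjusted p = 0.963) for MER1_type and 0.07 (SE 0.15, adjusted p = 0.963) for MER2_type, by edgeR. In HT cells all 12 rose at D2.5 over E18.5 (86.5% of families called), Charlie by 1.64, Tigger by 1.39, MER1_type by 1.44 and MER2_type by 1.52 on the log2 scale. Between E16.5 and E18.5, 2 of the 12 rose, Tip100 (0.45) and hAT (0.45), against 23.1% of families called. Alignment counts and read counts are not on the same scale.

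Mammals also keep transposase genes as host genes, and 17 such mouse genes were followed, most of hAT or pogo origin and 3 (Pgbd1, Pgbd5 and Harbi1) of piggyBac or Harbinger origin. Pogz, a chromatin regulator with a pogo-type transposase domain, and Zbed6, a transcription factor derived from a hAT transposase, were the most counted. No gene of the list was called between genotypes: 0 of 16 tested at E16.5 (0.00618% of all genes called), 0 of 16 at E18.5 (2.14%), and 0 of 14 at D2.5 for KO over HT (0.153%), KO over WT (0.216%) or HT over WT (0.00696%). Pogz had 953, 859 and 803 CPM in E18.5 KO libraries, against 761, 784 and 791 CPM in HT libraries. Every KO library lay above every HT library, but the log2 fold change was 0.16 (SE 0.13, adjusted p = 0.889), by edgeR. At D2.5 Pogz had 608, 633 and 635 CPM in KO libraries, against 876, 797 and 688 CPM in HT and 605, 786 and 920.4 CPM in WT libraries, with -0.34 (SE 0.16, adjusted p = 0.677) for KO over HT. There the KO libraries lay below all HT libraries and overlapped with WT. The share of all genes without overlap was not counted, so neither separation of Pogz has a background beside it.

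With age the host genes went in both directions in HT cells. At E18.5 over E16.5, 3 of 17 fell (13.2% of genes called): Pogz (-0.55), Zbed4 (-1.25), a hAT-derived zinc finger gene, and Zbed6 (-0.72), with edgeR adjusted p of 0.0259 to 0.0313. In E16.5 HT libraries Pogz had 1405, 1076 and 950 CPM, Zbed4 63.0, 39.0 and 24.3 CPM and Zbed6 357, 252 and 207 CPM. The first library, which stood apart, was thus the highest for all 3. Alternatives were run on repeat names alone, so these calls were not tested without it. At D2.5 over E18.5, 3 rose and 2 fell (54.8% of genes called). Zbed4 had 88.7, 183 and 117 CPM in D2.5 HT libraries, against 16.6, 16.9 and 19.1 CPM in E18.5 HT libraries. Zbed6 had 335, 287 and 360.1 CPM in D2.5 HT libraries, against 183, 154 and 156 CPM in E18.5 HT libraries. The ages did not overlap for either, with log2 fold changes of 2.89 (SE 0.37, adjusted p = 2.21e-06) and 1.00 (SE 0.21, adjusted p = 0.000513), by edgeR. Pogk, a KRAB gene with a pogo-type transposase domain, rose too (0.50, adjusted p = 0.0292). Tigd5, a Tigger-derived gene, and Cenpb, which binds centromeric satellite DNA through a domain of pogo-type origin, fell by 3.08 and 2.13 on the log2 scale, from few reads: Tigd5 had 0, 0.456 and 0 CPM in D2.5 HT libraries, against 1.33, 1.57 and 1.52 CPM in E18.5 HT libraries. These are gene rows, counted apart from the 53 repeat names.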

How the data were processed

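RNA of 21 libraries of sorted germ cells was measured. Per the labels, total RNA was extracted with a PicoPure kit and amplified with NuGEN Ovation kits. The authors deposited counts: reads for 24495 genes and 1217 repeat names, and alignment counts for repeat families. The submitters' processing notes name STAR, Bowtie, featureCounts, edgeR and mm9; the sources used here give no versions or roles, nor how reads that match many copies were counted.

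Repeat names reaching 10 reads in 3 or more libraries entered edgeR 4.0.16 (R 4.3.3) two-sided tests, with library sizes and TMM factors from the gene rows, quasi-likelihood tests and Benjamini-Hochberg adjustment over all names at 0.05. Each embryonic age was fitted by itself (6 libraries), D2.5 with all 9 libraries, and ages with 18. The SE is the log2 fold change over the square root of F. The prior degrees of freedom were infinite at E18.5 and D2.5, so p-values there rest on a spread shared between names and not on each name's own replicates; they were 3.32 at E16.5. Host genes were filtered with filterByExpr. The tests were tried on simulated counts. At E18.5 deviations of same-numbered KO and HT libraries correlated at 0.15 to 0.19, above all other pairs of KO and HT libraries. The labels state no pairing and do not say what equal numbers share. No 2 libraries of a group were identical. The labels do not say that replicates came from separate animals, so p-values measure only the spread between these libraries, which may be technical.

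Alternatives were RLE factors (DESeq2's method), repeat totals, TMM over genes and names, other filters, genes and names in 1 fit, DESeq2 1.42.0, limma-voom (limma 3.58.1), the replicate block and leaving out each library. The members, lists and rules were chosen with earlier results of these data known. Named were the 6 members with the highest mean CPM, any member called between genotypes, and the 4 highest and 4 lowest log2 fold changes per comparison; Charlie2b, Charlie12, Charlie7, Charlie16a, the Tigger12 and Charlie10 names were also named after their values were seen. Figures used Python 3.11.15 with matplotlib 3.10.9. Intervals cover 95%.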

Additional observations from a re-analysis of the deposited data

How the results depend on the processing

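Another filter, no filter, genes and names in 1 fit and limma-voom moved no count of members called by over 1.5 times. Scaled to repeat totals, 1 member was called for KO over HT at E18.5 (8.36% of all names tested), 2 at D2.5 (3.24%) and 2 for KO over WT (4.05%). The same scaling called 22 members for HT at D2.5 over E18.5 (51.9% of names) and 1 for the KO effect at D2.5 minus E18.5 (0.175%). With it the median at E18.5 was -0.21. TMM over genes and names called 1 member for KO over HT at D2.5 (1.53% of names), and DESeq2 called 1 (1.35% of names), Tigger12c in both. For HT at E18.5 over E16.5, RLE factors called 2 members (16.1% of names), DESeq2 3 (12.6%) and the replicate block 1 (14.5%). The replicate block called 6 members for the KO effect at D2.5 minus E18.5 (24.65% of names). Apart from this comparison and HT at E18.5 over E16.5, it moved no count of members by over 1.5 times. It raised the names called for KO over HT at E16.5 to 28, against 0 without it, at E18.5 to 202, against 112, and for HT at E18.5 over E16.5 to 166, against 67. At E16.5 each HT library correlated best with the KO library of its own number (0.0585 to 0.69), but the second KO library correlated best with the first HT library (0.42), and at D2.5 same-numbered KO and HT libraries had correlations of -0.10 to -0.08. The cause of these changes was not tested.

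Leaving out 1 library gave 0 to 1 members called for KO over HT at E18.5, 0 to 2 at D2.5, 0 to 1 for KO over WT, 0 to 1 for HT at E18.5 over E16.5, 51 to 53 for HT at D2.5 over E18.5 and 0 for the others. Names called for KO over HT at E18.5 numbered 63 without the third KO library and 257 without the first HT library. Names called ranged from 10 to 19 for KO over HT at D2.5 and from 10 to 21 for KO over WT. The ranges were 1 to 162 for HT at E18.5 over E16.5 and 898 to 973 for HT at D2.5 over E18.5. Directions also turned; Tigger12c and Charlie22a in HT over age were called in the reported fit, the others were not. With repeat totals, log2 fold changes of KO over HT were Tigger7 -0.0419, Charlie1 -0.0437 and Charlie5 -0.0373 at E16.5, Tigger7 -0.21, Charlie1a -0.22, Tigger5 -0.10, Charlie1 -0.24, Tigger1 -0.13 and Charlie5 -0.27 at E18.5 and Tigger5 0.0136 at D2.5. The same scaling gave Charlie17a -0.79, Charlie14a -0.76, Tigger12c -0.51 and Charlie22a -0.35 for HT at D2.5 over E18.5. TMM over genes and names gave Charlie5 -0.00815 at E18.5, and RLE factors Charlie10b 0.0451 for HT at E18.5 over E16.5. Leaving out 1 library gave ranges through 0 for KO over HT at E16.5 (Charlie17a -0.28 to 0.0765, Charlie1b -0.19 to 0.0355, Tigger7 -0.0203 to 0.11, Charlie1a -0.14 to 0.13 and Charlie1 -0.0292 to 0.14), at E18.5 (Tigger16b -0.31 to 0.0127, Tigger13a -0.17 to 0.11, Tigger11a -0.21 to 0.22, Charlie1b -0.14 to 0.0506, Tigger7 -0.0431 to 0.19, Charlie1a -0.0732 to 0.17, Charlie1 -0.0852 to 0.12 and Charlie5 -0.0948 to 0.10) and at D2.5 (Tigger5 -0.30 to 0.0323, Charlie1 -0.33 to 0.0149 and Tigger1 -0.41 to 0.00442). The same held for HT over WT (Tigger8 -0.0927 to 0.73 and Charlie22a -0.70 to 0.0835) and for HT at E18.5 over E16.5 (Charlie1a -0.23 to 0.0166 and Charlie10b -0.22 to 0.0588). 3 libraries per group and 37 to 133 reads for the least counted member limit what can be seen at D2.5.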
